A study of Mus musculus with 20 samples.

Results

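CD4 T cells were 2768 of the 97181 barcodes kept from 20 single-cell libraries of mouse spleen and lymph node, or 2.85%, and 7.94% of the 34856 T cells among them. A barcode was kept when it held at least 1500 unique molecular identifiers (UMIs, each one counted molecule), 200 or more detected genes and no more than 10% of its UMIs from mitochondrial genes. It was taken as a CD4 T cell when Cd3d, Cd3e and Cd3g together had at least 2 UMIs, Cd79a and Cd79b together at most 1, Cd4 at least 1, and Cd8a, Cd8b1 and Foxp3 none. The members were thus selected on measured UMIs of these genes, whose levels are described without a test. The same T cells held 25691 CD8 T cells (a Cd8a or Cd8b1 UMI and no Cd4 UMI), 377 cells with both, 5930 cells (17%) with neither, and 90 Foxp3-positive cells that met every other term and are left out as regulatory T cells.

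The study profiled spleen and lymph node cells by 3' scRNA-seq from mice that carry human cDNA transgenes driven in B cells by an immunoglobulin VH promoter and Eµ enhancer. Eµ-PRMT5 mice (PRMT5, an arginine methyltransferase; 5 spleens), Eµ-TCL1 mice (TCL1, the oncogene of a standard chronic lymphocytic leukemia (CLL) model; 4 spleens and 3 lymph nodes) and Eµ-PRMT5/TCL1 mice (both transgenes; 4 spleens and 4 lymph nodes) were sampled when they met early removal criteria (ERC), and no transgene-free mouse is among the samples analysed here. Ages are not given, the nodes are sub-mandibular, and 7 mice gave both a node and a spleen. The promoter and enhancer act in B cells, so the CD4 T cells described here are not the cells the transgenes target, and human PRMT5 and TCL1 transcripts were not analysed here. Sex was called from these counts, as female where the X-inactivation gene Xist had more UMIs than Y-linked genes together. By this call Eµ-PRMT5 spleens came from 4 female mice and 1 male, Eµ-TCL1 spleens from 1 and 3, and Eµ-PRMT5/TCL1 spleens from 3 and 1. Sex is thus partly confounded with genotype. The labels name the strain C57BL/6N where the methods name C57BL/6J, and Eµ-PRMT5 spleen 3 is titled with the name the methods give to a transgenic founder. The name of the mouse of Eµ-PRMT5/TCL1 spleen 1 and node 2 ends in RT. The paper uses RT for Richter's transformation of CLL to an aggressive lymphoma, and whether the ending means this is not known here.

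CD4 T cells recognise peptides presented on MHC class II and help B cells, CD8 T cells and macrophages through cytokines and through surface ligands such as CD40 ligand. Naive and resting memory cells keep the interleukin-7 receptor (Il7r), the lymph node homing receptor Ccr7, and the transcription factors Tcf7 and Lef1, while effector cells switch to cytokine, chemokine or, less often, cytotoxic genes. Each T cell clone uses 1 rearranged beta chain, so a variable segment that recurs in most cells of a sample marks a restricted repertoire.

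Libraries held 9348094 to 72440894 UMIs in all barcodes and 784 to 8631 kept barcodes. CD4 T cells had a median of 2234 to 5822 UMIs per library, against 2834 to 6907 for CD8 T cells and 4052 to 16100 for B cells (at least 2 Cd79 UMIs and at most 1 Cd3 UMI). A Cd4 UMI was found in 0 to 0.373% of B cells, a cell type that should lack the gene. Among T cells 377 held a Cd4 UMI beside a Cd8a or Cd8b1 UMI, against 25691 with Cd8a or Cd8b1 and no Cd4 UMI. How many members are CD8 T cells whose Cd8 genes went undetected was not tested, and this bears most on libraries with few members. Of the members, 313 (11.3%) carried a barcode sequence that was also kept in another library, and over the 190 library pairs 6037 barcodes were shared where 6043 were expected from the numbers of barcodes kept, and 6 of them were members on both sides. Other cells' transcripts were present: 0 to 27.2% of members per library had more than 2 UMIs of Lyz2, S100a8, Cst3 or Cd74, genes of myeloid and antigen-presenting cells. These members had more UMIs in most libraries (a median of 17232 against 4441 in Eµ-PRMT5/TCL1 spleen 2), and leaving them out is given beside many of the results it moves.

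Some libraries stood apart. Eµ-TCL1 spleen 1 held 904 members, or 32.7% of all. Eµ-PRMT5/TCL1 spleen 4 had 6.92% of its members' UMIs in ribosomal protein genes, against 15.9% to 23.1% in the other 19. Eµ-TCL1 lymph node 3, with 12 members, had 4300 CPM (UMIs of a gene per 1000000 UMIs of all members of that library) of Hspa1a, Hspa1b, Dnajb1 and Hsph1 together, which encode heat shock proteins, against 125 to 941 in the others. The summed myeloid genes reached 44174 CPM in Eµ-TCL1 spleen 3, where 1 of 23 members had more than 2 UMIs of Lyz2 and S100a8.

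The label rests on Cd4, Cd3e and Il7r. To compare shares of cells across depths, every cell was thinned to 1500 UMIs. Cd3e was then seen in 67.9% to 100% of members per library and in 0 to 1.23% of B cells, a contrast that both definitions set, since each uses Cd3 UMIs. Of the T cell genes outside the rule, Lck, the proximal T cell receptor kinase, was in 33.3% to 78% of members and Cd28, the costimulatory receptor, in 16.7% to 65.4%. Il7r, which the rule did not use, did not hold throughout. It was seen in 25.5%, 41.7%, 48.3%, 9.09% and 7.69% of members in Eµ-PRMT5 spleens 1 to 5, in 1.33%, 10.5%, 4.35% and 33.3% in Eµ-TCL1 spleens 1 to 4, and in 32%, 5.19%, 14.5% and 6.67% in Eµ-PRMT5/TCL1 spleens 1 to 4. In nodes it was in 12.6%, 37.8% and 25% for Eµ-TCL1 and 38.5%, 23.1%, 13% and 5% for Eµ-PRMT5/TCL1, against 0 to 1.28% of B cells. Unthinned, the range was 2.88% to 72.9%. Il7r was thus near the B cell level in Eµ-TCL1 spleen 1 and at most 14.5% in 11 of the 20 libraries, and the cells are called CD4 T cells here by their rule and not as resting cells.

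Members sat close to the rule's limits. Of the 2768, 1564 had exactly 1 Cd4 UMI, while 5930 T cells had neither a Cd4 nor a Cd8 UMI, so an unknown part of the CD4 lineage lies outside. Another 86 members had exactly 2 Cd3 UMIs against 69 barcodes with 1 that met all else, and 396 had 1 Cd79 UMI against 148 with 2. Of the last 2 counts, Eµ-TCL1 spleen 1 held 253 and 105, and the node of that mouse 55 and 23. A single Cd8 UMI kept 88 barcodes out, 145 members had fewer than 2000 UMIs, and 512 barcodes met all else but had 4 or more Cd79 UMIs.

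As counted by these UMIs, CD4 T cells were fewer than CD8 T cells in 19 of 20 libraries. The class of T cells with neither gene is unknown. Eµ-PRMT5 spleen 1 held 621 CD8 T cells and 601 T cells with neither gene, more than the gap to its 357 members. The ratios below thus rest on cells with a detected gene only. In Eµ-PRMT5 spleens 1 to 5 there were 357, 48, 259, 22 and 13 members, or 57.5, 15.8, 18.4, 32.8 and 0.289 per 100 CD8 T cells. In Eµ-TCL1 spleens 1 to 4 there were 904, 19, 23 and 6, or 105.9, 2.62, 1.40 and 0.566 per 100. In Eµ-PRMT5/TCL1 spleens 1 to 4 there were 25, 212, 55 and 150, or 27.2, 20.3, 3.48 and 20.9 per 100. The 3 spleen groups overlapped, and within the Eµ-TCL1 group the ratio of spleen 1 stood far above the rest. Eµ-TCL1 nodes 1 to 3 held 269, 37 and 12 members, or 9.67, 2.52 and 1.83 per 100 CD8 T cells, and Eµ-PRMT5/TCL1 nodes 1 to 4 held 26, 39, 92 and 200, or 52, 4.36, 2.89 and 9.75 per 100.

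As a share of kept barcodes, CD4 T cells ran from 0.105% in Eµ-TCL1 spleen 4 (95% Wilson interval 0.0481% to 0.229%) to 14.2% in Eµ-TCL1 spleen 1 (13.4% to 15.1%). The Eµ-PRMT5 spleens held 7.69%, 4.73%, 5.00%, 0.478% and 0.218%, the Eµ-TCL1 spleens 14.2%, 0.275%, 0.460% and 0.105%, and the Eµ-PRMT5/TCL1 spleens 0.419%, 5.71%, 1.17% and 2.78%. Eµ-TCL1 nodes held 6.55%, 1.11% and 0.25%, and Eµ-PRMT5/TCL1 nodes 3.32%, 0.832%, 1.63% and 2.32%. Spleens of 1 genotype thus differed by more than 10-fold in each of the 3 genotypes. Shares of kept barcodes also move with how many B cells a tumour holds (9.19% to 93.0% of the kept spleen barcodes and 8.88% to 70.4% of the kept node barcodes).

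None of the 15 comparisons of these 3 measures passed its test (exact two-sided permutation test over libraries, or exact sign-flip test over mice, adjusted p of 1 in each). The log2 ratio of CD4 to CD8 T cells (0.5 added to both counts) was -4.65 ± 3.28 (SD, n = 4) in Eµ-TCL1 spleens. It was -3.17 ± 3.00 (SD, n = 5) with the PRMT5 transgene alone and -2.81 ± 1.36 (SD, n = 4) with both transgenes. The difference of 1.48 between Eµ-PRMT5 and Eµ-TCL1 had an exact p of 0.484, and that of 1.84 between Eµ-PRMT5/TCL1 and Eµ-TCL1 an exact p of 0.314. Without Eµ-TCL1 spleen 1 these grew to 3.06 and 3.42, the largest over all single-library omissions, and still did not pass. In nodes the ratio was -3.47 ± 1.84 (SD, n = 4) for Eµ-PRMT5/TCL1 and -4.79 ± 1.25 (SD, n = 3) for Eµ-TCL1, with an exact p of 0.343. With 5 and 4 libraries the exact test cannot go below p = 0.00794, and with 4 and 4, or 4 and 3, not below p = 0.0286.

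**Figure D1:**
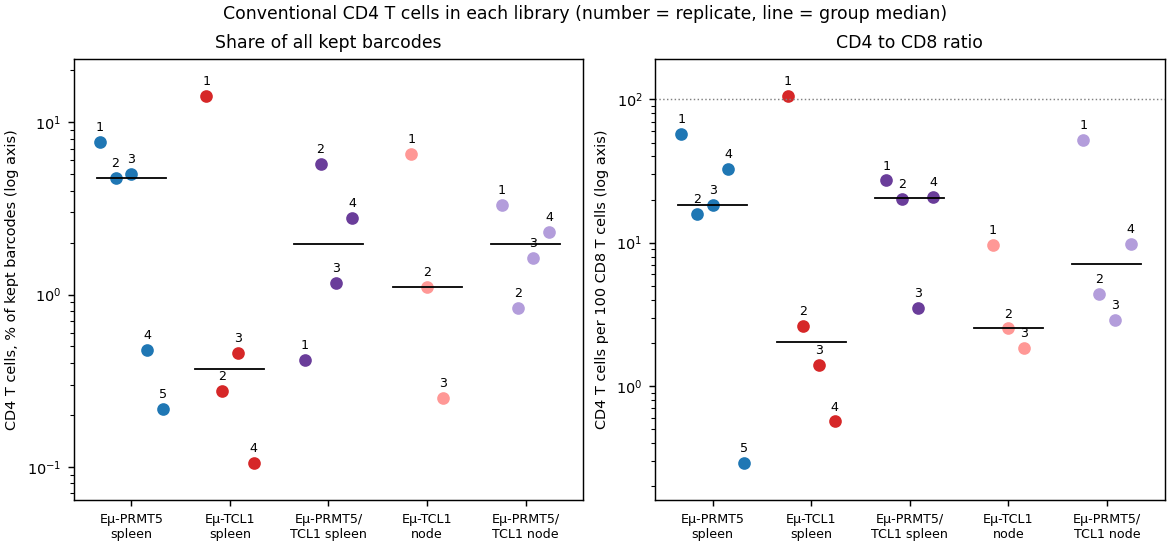
CD4 T cells as a share of kept barcodes (percent, log axis) and per 100 CD8 T cells (log axis) in each of the 20 libraries, 1 point a library, by genotype and tissue, with the replicate number above each point and a line at the group median. Eµ-TCL1 spleen 1 is the only point above 100 per 100 CD8 T cells (105.9), and the groups overlap.

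Within the 7 mice with both tissues, CD4 T cells made up 2.28% of kept node and 3.53% of kept spleen barcodes on average. The paired difference was -1.24 ± 3.20 points (SD, n = 7, exact sign-flip p = 0.5), although the share was higher in the node in 5 of 7 mice. The share among T cells differed by -4.69 ± 12.8 points (SD, n = 7, exact p = 0.469) and was higher in the node in 3 of 7. Without the mouse of Eµ-TCL1 spleen 1 the paired difference in the share of kept barcodes was -0.170 points, at the end of the range over left-out mice.

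A few receptor V segments recurred in the CD4 T cells, and the sequences of 4 are shown. Trbv17, Trav4-3 and Trav9-2 recurred in the largest group of members, in Eµ-TCL1 spleen 1 and the node of that mouse, and Trav13n-1 in the Trbv17 cells of Eµ-TCL1 node 2. The germline 3' ends of the V segments that recurred are each given as the last 90 coding bases on the plus strand of GRCm38 (GENCODE annotation), with capitals from the codon of the conserved cysteine, where the rearranged CDR3 begins, to the segment's end. Trbv17 lies at chr6:41163467-41163556, Trav4-3 at chr14:53599321-53599410, Trav9-2 at chr14:53591425-53591514 and Trav13n-1 at chr14:53162821-53162910 over these bases. The mouse Trav4, Trav9 and Trav13 families have near-identical copies along chromosome 14, so which copy a read came from is uncertain, and the rearranged junctions themselves were not analysed here.
Trbv17: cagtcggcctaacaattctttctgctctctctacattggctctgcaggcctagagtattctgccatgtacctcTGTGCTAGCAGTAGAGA
Trav4-3: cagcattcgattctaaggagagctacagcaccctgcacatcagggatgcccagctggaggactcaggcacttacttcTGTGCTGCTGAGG
Trav9-2: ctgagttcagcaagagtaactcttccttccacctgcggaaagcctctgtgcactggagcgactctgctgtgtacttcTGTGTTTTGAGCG
Trav13n-1: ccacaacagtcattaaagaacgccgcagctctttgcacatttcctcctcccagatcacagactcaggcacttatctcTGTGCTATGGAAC

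Trbv17, whose segment ends in a cysteine, alanine and serine start of the CDR3, was found in 811 of 904 CD4 T cells of Eµ-TCL1 spleen 1 (89.7%, 23707 UMIs). It was the leading beta segment of 808 of the 895 cells there with any beta V UMI, or 90.3% (95% Wilson interval 88.2% to 92.1%). In the node of the same mouse it was in 211 of 269 members and led 210 of 261, or 80.5% (75.2% to 84.8%). The 2 tissues of that mouse also shared the alpha segments: Trav4-3 was in 93.1% of Trbv17 cells of the spleen and 96.7% of those of the node, and Trav9-2 in 48.0% and 44.1%. Trav4-3 was in 3.23% and 3.45% of the remaining members, those without a Trbv17 UMI.

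Trbv17 also led CD4 T cells of 2 other nodes, where other alpha segments were the most frequent. In Eµ-TCL1 node 2 it led 21 of 36 members with a beta V UMI (58.3%, interval 42.2% to 72.9%), and 54.5% of its 22 Trbv17 cells had Trav13n-1 and 45.5% Trav13d-1, while 27.3% had Trav9-2, as in the first mouse, and none had Trav4-3. In Eµ-PRMT5/TCL1 node 4 it led 43 of 175 (24.6%, interval 18.8% to 31.5%), with Trav13n-3 in 20.5% and Trav13d-3 in 18.2% of 44 Trbv17 cells. The spleens of those 2 mice had Trbv17 in 2 of 19 members (Eµ-TCL1 spleen 2) and 10 of 212 (Eµ-PRMT5/TCL1 spleen 2). In the remaining 16 libraries the leading beta segment of CD4 T cells took 10.9% to 36.8% of cells, and Trbv17 did not lead in any.

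CD8 T cells of the same libraries had other leading segments. Trbv17 was in 6.67% of CD8 T cells and 2.74% of B cells of Eµ-TCL1 spleen 1, with 23707 Trbv17 UMIs in members, 264 in CD8 T cells and 57 in B cells. Its CD8 T cells were led by Trbv1 in 216 of 801. CD8 T cells were more restricted than the CD4 T cells beside them in Eµ-PRMT5 spleen 5, where Trbv12-1 led 3606 of 4045 CD8 T cells (89.1%) and the 13 members had 9 leading segments. In Eµ-TCL1 spleen 3 Trbv13-2 led 1222 of 1544 (79.1%) but Trbv26 led 7 of 19 members. In Eµ-TCL1 spleen 2 Trbv16 led 421 of 675 (62.4%) and Trbv20 4 of 18 members. In Eµ-PRMT5 spleen 2 Trbv31 led 138 of 290 (47.6%) and Trbv13-2 8 of 44 members. Smaller gaps in the same direction were seen in some other libraries. These shares are descriptions of single libraries.

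**Figure D2:**
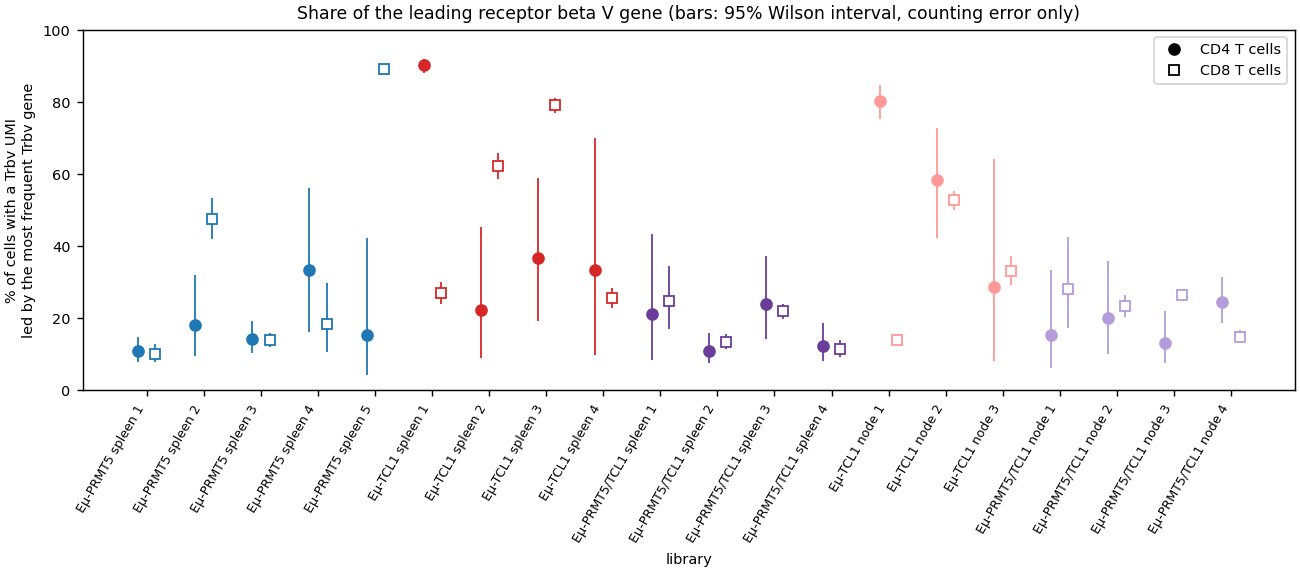
Share of CD4 and of CD8 T cells with any beta V UMI that were led by the library's most frequent beta segment (percent), 1 pair of points a library, with 95% Wilson intervals that cover counting error only. Trbv17 leads the CD4 T cells of 4 libraries at 90.3%, 80.5%, 58.3% and 24.6%, and no other library's CD4 T cells pass 36.8%.

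Cells with and without a Trbv17 UMI were described side by side in those 4 libraries, with genes chosen after their values were seen. In Eµ-TCL1 spleen 1, Lag3, an inhibitory receptor for MHC class II, was in 72.9% of Trbv17 cells and 19.4% of the rest after thinning. Pdcd1, which encodes PD-1, was in 71.6% and 28.0%, and Gzma, a cytotoxic granule protease, in 30.7% and 3.23%, while Gzmk was alike at 71.5% and 71.0%. The node of that mouse followed for Lag3 (33.2% and 6.90%) and Gzma (28.0% and 1.72%), with Ccr7 in 9.95% of Trbv17 cells and 46.6% of the rest.

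In the other nodes Ccr7 and Lag3 had the reverse order, while Pdcd1 and Gzma did not reverse in both. In Eµ-TCL1 node 2, Ccr7 was in 86.4% of Trbv17 cells and 26.7% of the rest, Gzmk in 0 of 22 and 40% of 15, and Lag3 in 0 and 20%. Pdcd1 was there in 40.9% of Trbv17 cells and 13.3% of the rest, as in Eµ-TCL1 spleen 1, and Gzma in 0 of both. In Eµ-PRMT5/TCL1 node 4, Ccr7 was in 70.5% and 8.33%, Gzmk in 4.55% and 47.4%, Gzma in 0 and 1.28%, and both Lag3 and Pdcd1 in 13.6% and 37.8%. Rln3, which encodes the hormone relaxin 3, was higher in Trbv17 cells of all 4 libraries: 14.7% against 2.15%, 21.3% against 5.17%, 45.5% against 0 and 31.8% against 3.85%. Genes were then counted at 20 CPM or more on their higher side in all 4 libraries, with fewer than 3 UMIs on the other side set to 3. Of these, 3 were at least 2-fold higher in Trbv17 cells of every one of the 4 libraries (Rbpms, Atp1b1 and Trbv17 itself, which the split fixes). Another 7 were at least 2-fold lower (Ccr2, Cd74, H2-Eb1, Penk, Tspan13 and the segments Trbv19 and Trbv5, which the choice of cells by another beta segment lowers). Atp1b1 rests on 6 against 3 UMIs in Eµ-PRMT5/TCL1 node 4, and Cd74 is among the genes of other cells given above. Cells of 1 library are not replicates, and no test was made.

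Tnfsf8, Nkg7 and Ccl5 differed within a genotype, and these genes too were chosen after their values were seen. Tnfsf8, which encodes CD30 ligand, was at 919, 793 and 946 CPM in Eµ-PRMT5 spleens 1 to 3 and at 11.5 and 258 CPM in spleens 4 and 5. Nkg7, a cytotoxic granule protein, was at 74.7, 160 and 34.5 CPM in spleens 1 to 3 and 2234 and 1275 CPM in spleens 4 and 5. Ccl5, a chemokine of effector and memory cells, was at 1262, 3305 and 1616 CPM and then at 23480 and 17682 CPM. Spleens 1 to 3 and spleens 4 and 5 thus lay apart for these 3 genes within 1 genotype. Other cytotoxic genes did not all follow that split, and they are given as UMIs. The summed UMIs were 1660325, 243301, 898469, 86839 and 69790 in spleens 1 to 5. Gzma had 8, 0, 28, 0 and 0 UMIs, the granzyme gene Gzmb 3, 1, 9, 71 and 0, and the perforin gene Prf1 14, 4, 7, 14 and 0. For their summed UMIs, Gzmb and Prf1 were thus highest in spleen 4, and none in spleen 5 allows up to 43.0 CPM (3 UMIs). Gzmk was seen after thinning in 77.3% and 38.5% of members of spleens 4 and 5, above spleens 1 to 3 (given below).

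The other spleens had high Nkg7. It was at 1615, 2068, 778 and 1091 CPM in Eµ-TCL1 spleens and 1807, 1289, 1045 and 1210 CPM in Eµ-PRMT5/TCL1 spleens, and Tnfsf8 was at 28, 0, 501 and 0 CPM and 107, 8.04, 56.8 and 34.5 CPM. Gzmk was seen after thinning in 38% to 78.9% of members of 15 libraries. It was in 6.44%, 16.7% and 12.4% of those of Eµ-PRMT5 spleens 1 to 3 and in 16.2% and 25% of those of Eµ-TCL1 nodes 2 and 3. Tigit, an inhibitory receptor, was in 16.7% to 77.4% of members per library and in 3.34% to 47.8% of CD8 T cells. Cd40lg, the B cell help ligand, was in at most 9.52% of members of any library.

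**Figure D3:**
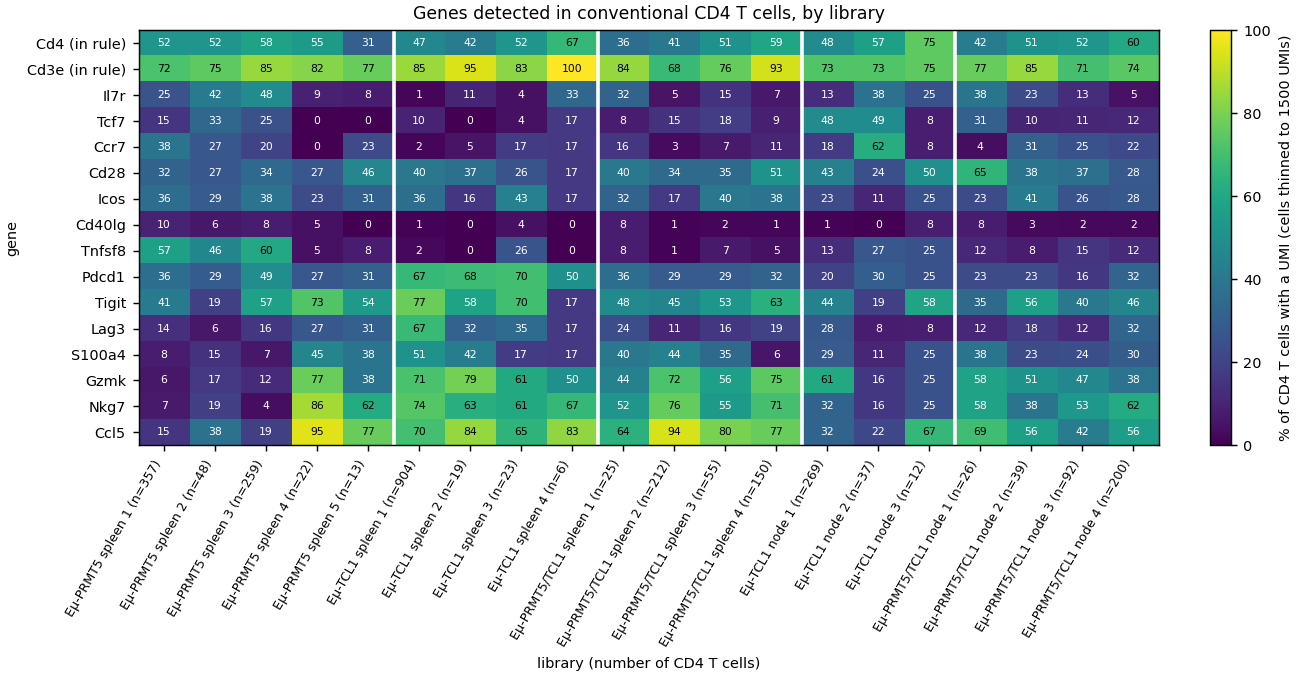
Heat map of the percent of CD4 T cells with a UMI of each gene (rows, the top 2 used by the rule) in each library (columns, with its number of members), after thinning each cell to 1500 UMIs. Eµ-PRMT5 spleens 1 to 3 are high in Tnfsf8 (45.8% to 60.2%) and low in Nkg7 (3.86% to 18.8%), while in the other 10 spleens Tnfsf8 is at most 26.1% and Nkg7 at least 52%.

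Genes were then compared between genotypes on UMIs summed over the members of a library. Libraries with at least 20 members entered (86839 to 5391992 summed UMIs per spleen): 4 Eµ-PRMT5 spleens, 2 Eµ-TCL1 spleens, 4 spleens with both transgenes, and 2 Eµ-TCL1 and 4 Eµ-PRMT5/TCL1 nodes. In such sums a smaller share of expressing cells and less RNA per cell cannot be told apart. A gene was called at an adjusted p below 0.05 (edgeR quasi-likelihood test, Benjamini-Hochberg over all genes tested).

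Eµ-PRMT5/TCL1 and Eµ-PRMT5 spleens differed in proliferation genes. Of the 16 genes of that list 8 rose in Eµ-PRMT5/TCL1 members and none fell, beside 107 of all 7574 genes that rose (1.41%), and 164 called in either direction (2.17%). All 16 fold changes were positive, with a median log2 fold change of 1.84 against -0.01 over all genes tested. Of 12 naive genes 2 fell. None of 15 Th1 and cytotoxic genes passed (11 positive, median 0.93), none of 27 interferon-stimulated genes (17 positive, median 0.13) and none of 22 immediate early genes (2 positive, median -0.64).

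Top2a, the topoisomerase of dividing cells, was at 25.3, 16.4, 18.9 and 11.5 CPM in Eµ-PRMT5 spleens 1 to 4 and 91.9, 173, 183 and 236 CPM in Eµ-PRMT5/TCL1 spleens 1 to 4. Every Eµ-PRMT5/TCL1 value lay above those of the 4 fitted Eµ-PRMT5 spleens, and the log2 fold change was 3.06 (SE 0.38, adjusted p = 0.00357). Mki67, the Ki-67 antigen, was at 24.1, 12.3, 8.9 and 34.5 CPM against 130, 109, 156 and 161 CPM (log2 fold change 2.93, SE 0.50, adjusted p = 0.00858). Cdk1, the kinase that starts mitosis, was at 7.83, 4.11, 7.79 and 11.5 CPM against 23, 51.7, 42 and 102 CPM (2.91, SE 0.46, adjusted p = 0.00469). None of these 3 genes overlapped between the fitted groups, nor did 436 of all 7574 genes tested (5.76%). Eµ-PRMT5 spleens 2 and 4 and Eµ-PRMT5/TCL1 spleen 1 had 243301, 86839 and 130593 summed UMIs. Their Cdk1 values, and Top2a in Eµ-PRMT5 spleen 4, thus rest on few UMIs.

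Eµ-PRMT5 spleen 5, with 13 members and not fitted, had 158 CPM of Top2a (11 UMIs), 28.7 CPM of Mki67 (2 UMIs) and 43.0 CPM of Cdk1 (3 UMIs). Its Top2a and Cdk1 lay above Eµ-PRMT5/TCL1 spleen 1, so with it these 2 genes overlapped. With all libraries of at least 10 members, which added this spleen and Eµ-TCL1 spleen 2, Top2a (2.54, adjusted p = 0.021), Mki67 (2.90, adjusted p = 0.00533) and Cdk1 (2.69, adjusted p = 0.00853) still passed. In that fit 6 of the 16 proliferation genes rose, beside 78 of all 5641 genes tested.

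The replication genes Mcm5 (log2 fold change 1.98, SE 0.34), Mcm3 (1.70, SE 0.40) and Rrm2 (2.78, SE 0.60), the cyclin gene Ccnb2 (3.71, SE 0.71) and the microtubule regulator Stmn1 (1.68, SE 0.42) were the others of the list that rose. Ccnb2 was at 46.1 CPM in Eµ-PRMT5 spleen 4, above the 23 CPM of Eµ-PRMT5/TCL1 spleen 1. Of the called genes outside the list that were named by fold change, those that rose were the spindle factor Tpx2 (4.39, SE 0.60), Ckap2l (3.90, SE 0.56), the cohesin protector Sgo2a (3.75, SE 0.70), the mitotic regulators Ccnb1 (3.58, SE 0.58) and Plk1 (3.58, SE 0.66), the chromatin assembly factor Chaf1a (3.28, SE 0.44), and the motor proteins Kif22 (3.28, SE 0.48) and Cenpe (3.27, SE 0.54). Itgad, an integrin alpha chain (5.26, SE 0.87), Ggt1 (4.30, SE 0.86), Tlr2 (3.35, SE 0.81) and Tubb3 (3.23, SE 0.70) were the others of these 12.

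Top2a, Tpx2 and Chaf1a passed in all 10 fits that each left out 1 spleen. The count of called proliferation genes fell to 1 of 16 without Eµ-PRMT5 spleen 1 and to 1 without spleen 3, with medians of 1.90 and 1.91, and was 5 to 10 without any other spleen. Counts over all genes moved alike, to 13 without Eµ-PRMT5 spleen 1, 10 without spleen 3 and 50 without Eµ-PRMT5/TCL1 spleen 2, and to 413 without Eµ-PRMT5 spleen 4.

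Counted as cells, a Mki67 or Top2a UMI was present after thinning in 1.68%, 4.17%, 1.93%, 9.09% and 0 of members in Eµ-PRMT5 spleens 1 to 5. The Eµ-PRMT5/TCL1 spleens had 8%, 16.5%, 14.5% and 16.7%, and the Eµ-TCL1 spleens 10.4%, 10.5%, 8.70% and 0. The 2 cells of Eµ-PRMT5 spleen 4 put it above Eµ-PRMT5/TCL1 spleen 1, and all other thinned values of these 2 genotypes were ordered. Unthinned, the shares were 3.64%, 8.33%, 3.86%, 13.6% and 23.1% in Eµ-PRMT5 and 20%, 34.0%, 27.3% and 28% in Eµ-PRMT5/TCL1 spleens. Eµ-PRMT5 spleen 5, with 3 of 13 members, then lay above Eµ-PRMT5/TCL1 spleen 1. In the same Eµ-PRMT5/TCL1 spleens the thinned share was 15.2%, 4.98%, 3.74% and 9.76% of CD8 T cells. It was 4.38%, 7.53%, 4.08% and 15.7% of B cells. In Eµ-PRMT5 spleens 1 to 5 it was 1.29%, 0.329%, 0.926%, 17.9% and 4.38% of CD8 T cells. Of B cells there it was 1.08%, 1.26%, 1.32%, 26.98% and 2.00%. Eµ-PRMT5 spleens 1 to 3 thus lay below every Eµ-PRMT5/TCL1 spleen in CD8 T and B cells too, and spleen 4 above. Whether the rise differed between CD4 T cells and these cells was not tested. Unthinned, cells with such a UMI held more UMIs in each of the 4 Eµ-PRMT5/TCL1 spleens (a median of 8793 against 4378.5 UMIs in spleen 2) and fewer in Eµ-TCL1 spleen 3 (2728 against 3289). In those 4 spleens 1 of 5, 26 of 72, 6 of 15 and 9 of 42 such cells had more than 2 UMIs of Lyz2, S100a8, Cst3 or Cd74. Of all members there 3 of 25, 49 of 212, 13 of 55 and 21 of 150 did. The part of other cells' transcripts in these shares was not tested.

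**Figure D4:**
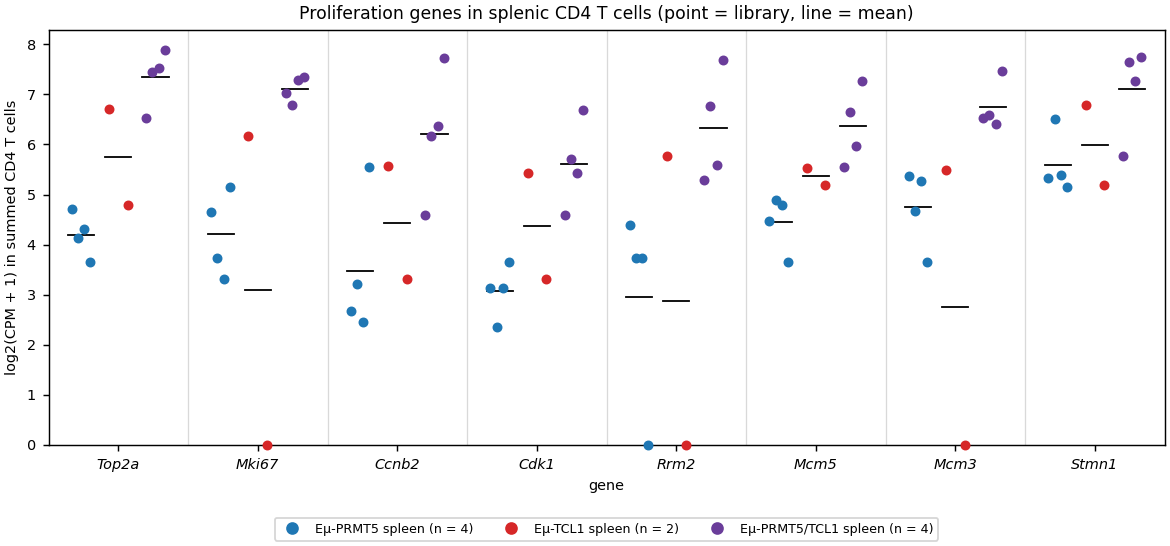
log2(CPM + 1) of the 8 proliferation genes that rose, in the summed CD4 T cells of each fitted spleen (1 point a library, line at the group mean), by genotype (n = 2 for Eµ-TCL1, otherwise n = 4). Top2a lies at 11.5 to 25.3 CPM in the 4 fitted Eµ-PRMT5 spleens and at 91.9 to 236 CPM in the Eµ-PRMT5/TCL1 spleens, and the Eµ-TCL1 spleens, at 104 and 26.8 CPM, spread widely.

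Myeloid genes moved in the same comparison without passing. Of 12 tested, 10 were higher in Eµ-PRMT5/TCL1 members with a median log2 fold change of 2.07 and none called, and their sum ran from 169 to 9869 CPM in Eµ-PRMT5, 551 to 15117 CPM in Eµ-PRMT5/TCL1 and 7507 to 44174 CPM in Eµ-TCL1 spleens. Under a stricter gate without any Cd79 UMI and with at most 2 UMIs each of Lyz2, S100a8, Cst3 and Cd74, Eµ-PRMT5 spleen 4 fell to 18 members. With the same 10 spleens kept, 92 genes were called, 65 of them shared with the 164, and 4 of 15 proliferation genes rose, with a median of 1.76. Top2a passed (2.94, adjusted p = 0.00422), and Chaf1a did not (2.89, adjusted p = 0.0603), nor did Mcm3 (1.44, adjusted p = 0.0672), Stmn1 (1.76, adjusted p = 0.133), Ccnb2 and Cenpe. Tlr2, a receptor common on myeloid cells, had no value under that gate, nor had Cdk1, Tpx2, Plk1, Ckap2l, Ccnb1 and Sgo2a with the same spleens. Tlr2 passed in 4 of the 10 fits that each left out 1 spleen. With Eµ-PRMT5 spleen 4 left out for its 18 members the gate gave 270 calls, where leaving out that spleen alone gave 413.

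Bach2 and Satb1 were the 2 of 12 naive genes that fell in Eµ-PRMT5/TCL1 members. The summed list overlapped between the groups, at 691 to 3144 CPM in Eµ-PRMT5 and 716 to 1784 CPM in Eµ-PRMT5/TCL1 spleens. Bach2, a repressor that holds back effector differentiation, was at 97, 181, 140 and 34.5 CPM in Eµ-PRMT5 and 15.3, 16.7, 34.6 and 24.4 CPM in Eµ-PRMT5/TCL1 spleens, with a log2 fold change of -2.42 (SE 0.37, adjusted p = 0.00469). Satb1, a chromatin organiser of T cells, was at 145, 226, 183 and 138 CPM against 99.5, 42.5, 49.4 and 33 CPM (-1.83, SE 0.33, adjusted p = 0.00862). Satb1, like 436 of all 7574 genes tested (5.76%), did not overlap between the fitted groups. Bach2 in Eµ-PRMT5 spleen 4 was level with Eµ-PRMT5/TCL1 spleen 3. The unfitted Eµ-PRMT5 spleen 5 had 14.3 CPM of Satb1 (1 UMI), below every Eµ-PRMT5/TCL1 spleen, and 43.0 CPM of Bach2 (3 UMIs). With libraries of at least 10 members Bach2 passed (-2.29, adjusted p = 0.00594) and Satb1 did not (-1.62, adjusted p = 0.0677). Under the stricter gate with the same spleens 2 of 12 naive genes fell, beside the calls over all genes given above for that fit. Bach2 was among the 2 (-2.23, adjusted p = 0.0105), and Satb1 did not pass (-1.60, adjusted p = 0.0542).

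Of the 12 naive genes 10 had a negative log2 fold change, with a median of -1.23 over the 12, and the other 10 genes did not pass. Il7r was at 237, 645, 471 and 57.6 CPM against 199, 39.1, 69.2 and 27.3 CPM (-2.37, adjusted p = 0.216). Tnfsf8 (-4.03, adjusted p = 0.188), Nkg7 (1.08, adjusted p = 0.757) and Ccl5 (0.32, adjusted p = 0.930), which varied between the Eµ-PRMT5 spleens, did not pass either.

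Adk, adenosine kinase, was at 127, 242, 157 and 34.5 CPM in Eµ-PRMT5 and 7.66, 14.9, 32.1 and 30.2 CPM in Eµ-PRMT5/TCL1 spleens, and fell by 2.75 on the log2 scale (SE 0.42, adjusted p = 0.00469) in every left-out fit as well. Eµ-PRMT5 spleen 5 had 28.7 CPM of Adk (2 UMIs), within the Eµ-PRMT5/TCL1 range, and with libraries of at least 10 members Adk still passed (-2.59, adjusted p = 0.00923). The other large falls were in Igf1r, the insulin-like growth factor 1 receptor (-2.92, SE 0.51), the GTPase activator Arhgap5 (-2.60, SE 0.48), Pawr (-2.47, SE 0.57), Ssbp2 (-1.90, SE 0.33), the early endosome protein gene Eea1 (-1.87, SE 0.33), Rsbn1 (-1.81, SE 0.36), the endosomal sodium-proton exchanger Slc9a9 (-1.62, SE 0.38), Snhg12 (-1.57, SE 0.34), Ier5l (-2.99, SE 0.71) and Ypel4 (-5.86, SE 0.92). Under the stricter gate with the same spleens Igf1r (-2.78, adjusted p = 0.0605) and Slc9a9 (-1.34, adjusted p = 0.111) did not pass. Ypel4 had 1 UMI in all 4 Eµ-PRMT5/TCL1 spleens together, so its fold change depends on the fit's prior count.

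Of the surface and helper genes, Cd200, a ligand of follicular helper cells that is also counted with the inhibitory receptors, fell (-2.41, SE 0.47, adjusted p = 0.0149), as did Cd40lg (-2.73, SE 0.59, adjusted p = 0.0275) and the integrin Itgb1 (-1.57, SE 0.39, adjusted p = 0.0459). Cd40lg was at 71.1, 107, 51.2 and 23 CPM against 38.3, 6.89, 4.94 and 11.5 CPM, with an overlap between Eµ-PRMT5 spleen 4 and Eµ-PRMT5/TCL1 spleen 1. Cd48, a ligand of the SLAM family, rose (1.37, SE 0.25, adjusted p = 0.00998). The nucleolar gene Gnl3 fell (-1.57, SE 0.32), the 1 of 16 ribosome biogenesis genes that passed. Itgb1 did not pass without the Trbv17 cells (-1.60, adjusted p = 0.0642), with libraries of at least 10 members (-1.43, adjusted p = 0.0588) or under the stricter gate with the same spleens (-1.34, adjusted p = 0.128), and Gnl3 did not under that gate (-1.30, adjusted p = 0.0791). Zbtb16, the transcription factor of innate-like T cells, also fell, from 22.9, 28.8, 10 and 0 CPM in Eµ-PRMT5 to 0, 1.15, 0 and 0 CPM in Eµ-PRMT5/TCL1 spleens, and rests on few UMIs.

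Between Eµ-PRMT5 and Eµ-TCL1 spleens 42 of 7574 genes were called (0.555%), 15 higher in Eµ-PRMT5 and 27 lower. The balance turned in other fits, with 23 higher and 13 lower of 7560 by DESeq2, and 23 higher and 14 lower of 3783 after thinning. The 2 Eµ-TCL1 spleens are spleen 1, led by Trbv17 cells, and spleen 3 with 23 members. Without spleen 1 edgeR called 0 genes, with 426 at an unadjusted p under 0.05 against 826 with it. Without the Trbv17 cells of every library it also called 0, with 393, and 35 of the 42 genes still had a value. The calls of this comparison were thus lost without spleen 1 and without the Trbv17 cells, while no named gene that still had a value changed direction. Without the Trbv17 cells Esm1 was -2.65 (adjusted p = 0.246) and Il6ra 1.53 (adjusted p = 0.812). With libraries of at least 10 members 18 genes were called, 16 of them shared with the 42.

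Bach2 and the interleukin-6 receptor gene Il6ra were the 2 of 12 naive genes that passed, both higher in Eµ-PRMT5 members. Genes of B cells, which also express Bach2, moved the same way without passing: 6 of 6 tested were positive with a median log2 fold change of 2.67. The 15 listed B cell genes summed to 322.4 to 4599 CPM in Eµ-PRMT5 and to 179 and 417 CPM in Eµ-TCL1 spleens, with the markers Ms4a1 at 0 to 4.11 and Pax5 at 0 to 1.11 CPM in these 6 spleens. Their part in the result was not tested. Il6ra was at 74.1, 28.8, 75.7 and 11.5 CPM in Eµ-PRMT5 and 5.19 and 0 CPM in Eµ-TCL1 spleens 1 and 3 (log2 fold change 3.47, SE 0.61, adjusted p = 0.0223), and Bach2 at 20.8 and 26.8 CPM in the latter (2.40, SE 0.49, adjusted p = 0.0395). Of the naive genes 10 of 12 were positive with a median of 1.65 against 0.03 over all genes, and all 22 immediate early genes were positive with a median of 0.99 and none called. All 11 heat shock genes tested were positive too, with a median of 0.77 and none called. That list summed to 8054 to 11492 CPM in Eµ-PRMT5 and 4991 and 6869 CPM in Eµ-TCL1 spleens. Top2a was lower in Eµ-PRMT5 members (-2.01, SE 0.43, adjusted p = 0.0459), with 104 and 26.8 CPM in the Eµ-TCL1 spleens. With libraries of at least 10 members Il6ra passed (3.18, adjusted p = 0.0286), although Eµ-TCL1 spleen 2 had 25.9 CPM (2 UMIs), and Bach2 (2.19, adjusted p = 0.0501) and Top2a (-1.32, adjusted p = 0.412) did not. Under the stricter gate with the same spleens Bach2 passed (2.40, adjusted p = 0.036), and Il6ra (3.91, adjusted p = 0.0742) and Top2a (-1.60, adjusted p = 0.137) did not.

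Others higher in Eµ-PRMT5 were the transcription factor Klf4 (5.45, SE 0.90), the PD-1 ligand gene Pdcd1lg2 (2.71, SE 0.54), Ttn, Nebl, Arhgap5 and the beta segments Trbv13-3 and Trbv13-2. Trbv13-3 was at 83.1, 20.6, 101 and 57.6 CPM in Eµ-PRMT5 and at 0.93 and 0 CPM in Eµ-TCL1 spleens. Trbv17 led 90.3% of the cells of Eµ-TCL1 spleen 1, and its part in the values of the other segments was not tested.

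Rln3 had the lowest adjusted p of the comparison (log2 fold change -5.65, SE 0.61, adjusted p = 0.000593). It was at 104 and 53.7 CPM in Eµ-TCL1 spleens 1 and 3 and at 1.81, 0, 2.23 and 0 CPM in Eµ-PRMT5 spleens, where it rests on 5 UMIs in all. In spleen 3 it rests on 6 UMIs. It passed in 9 of 10 left-out fits and failed without Eµ-TCL1 spleen 1. Eµ-TCL1 spleens 2 and 4, not fitted, had no Rln3 UMI among their members, which allows up to 38.8 and 204.5 CPM (3 UMIs), so 2 of the 4 Eµ-TCL1 spleens showed none.

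Esm1, the proteoglycan endocan, was at 226 and 161 CPM in Eµ-TCL1 and 15.7, 20.6, 27.8 and 80.6 CPM in Eµ-PRMT5 spleens (-2.97, SE 0.46, adjusted p = 0.0177). The unfitted Eµ-TCL1 spleen 2 had 181 CPM of Esm1 and Eµ-PRMT5 spleen 5 had 115 CPM. Dnase1l3, a secreted nuclease (-3.1, SE 0.52), the adaptors Lat2 (-3.17, SE 0.68) and Grb7 (-2.87, SE 0.55), and Susd1, Igsf23, Sytl1, Kif22, Smim24 and Paqr4 were likewise lower in Eµ-PRMT5. Retnlg, a resistin-like gene of neutrophils, was at 184 and 313 CPM in Eµ-TCL1 spleens and 0 to 13.8 CPM in the Eµ-PRMT5 spleens, with no UMI in Eµ-TCL1 spleens 2 and 4. It moved with the summed myeloid genes of the 2 fitted spleens, 7507 and 44174 CPM. Under the stricter gate with the same spleens 36 genes were called and 24 were shared with the 42. Klf4 (5.39, adjusted p = 0.176), Nebl (3.35, adjusted p = 0.0766), Pdcd1lg2 (2.85, adjusted p = 0.0506) and Susd1 (-4.30, adjusted p = 0.0535) did not pass there. Retnlg, Lat2 and Smim24 had no value under it.

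When both-transgene spleens were set against Eµ-TCL1 spleens, 7 of 7574 genes were called (0.0924%), 2 higher and 5 lower in Eµ-PRMT5/TCL1. DESeq2 called 16, and 459 genes had an unadjusted p under 0.05 by edgeR. Rln3 was again lower (-3.89, SE 0.50, adjusted p = 0.00571), at 7.66, 7.47, 0 and 7.18 CPM against 104 and 53.7 CPM. Cap2, an actin-binding protein gene, was at 51.2 and 35.8 CPM in Eµ-TCL1 and at 0 in all 4 Eµ-PRMT5/TCL1 spleens. The sodium pump subunit Atp1b1 (-3.48, SE 0.54), Dnase1l3 (-2.88, SE 0.50) and Trav9-2 (-4.40, SE 0.66) were the other genes that fell, and the segments Trbv13-3 (5.58, SE 0.90) and Trav6-7-dv9 (7.19, SE 1.22) rose.

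Cap2, Atp1b1, Rln3 and Trav9-2 were higher in Trbv17 cells than in the other members of Eµ-TCL1 spleen 1, at 55.3 against 6.65 CPM for Cap2 and 113 against 8.87 CPM for Rln3. edgeR called 0 genes without those cells and 0 without spleen 1, with 177 and 529 at an unadjusted p under 0.05. Without those cells only 2 of the 7 genes still had a value, so the other 5 could not be called, while all 7 had one without spleen 1. Of the B cell genes 5 of 6 were positive, with a median of 3.23, and none passed. All 16 proliferation genes were positive with a median of 0.95 against 0.01 over all genes, and none passed.

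In lymph nodes 23 of 5689 genes were called between Eµ-PRMT5/TCL1 and Eµ-TCL1 members (0.404%), 10 higher and 13 lower. DESeq2 called 32 higher and 14 lower. Of 12 naive genes 3 fell in Eµ-PRMT5/TCL1, all 12 were negative, and their median was -1.21 against 0.00 over all genes. Of 13 Th1 and cytotoxic genes 2 rose, with a median of 1.14. The Eµ-TCL1 side was nodes 1 and 2, both led by Trbv17 cells, and node 3 with 12 members did not enter. Summed myeloid genes were at 273 and 3749 CPM in the Eµ-TCL1 and 174 to 401 CPM in the Eµ-PRMT5/TCL1 nodes, and 4 of them were tested with none called.

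Klf2, a transcription factor of quiescent and recirculating T cells, was at 982 and 650 CPM in Eµ-TCL1 nodes and 413, 280, 208 and 226 CPM in Eµ-PRMT5/TCL1 nodes (-1.49, SE 0.27, adjusted p = 0.0247). Its target S1pr1, the receptor that lets T cells leave nodes, was at 349 and 348 CPM against 188, 114, 115 and 78.5 CPM (-1.48, SE 0.28, adjusted p = 0.0347). Lef1 was at 224 and 234 CPM against 65.2, 102, 71.2 and 86.2 CPM (-1.37, SE 0.28, adjusted p = 0.0462). None of these 3 overlapped between the fitted groups, nor did 1048 of all 5689 genes tested (18.4%). Eµ-TCL1 node 3, with 12 members, had 463 CPM of Klf2 and 132 CPM of Lef1, above every Eµ-PRMT5/TCL1 node, and 99.2 CPM of S1pr1 (3 UMIs), below 3 of them. With that node in the fit Klf2 (-1.34, adjusted p = 0.17), S1pr1 (-1.30, adjusted p = 0.223) and Lef1 (-1.32, adjusted p = 0.158) did not pass.

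Without the Trbv17 cells Eµ-TCL1 node 2 held 15 members. With the same 6 nodes kept, Klf2 (-0.79, adjusted p = 0.654), S1pr1 (-0.85, adjusted p = 0.661) and Lef1 (-1.24, adjusted p = 0.355) did not pass, and 2 genes were called in all, with 323 at an unadjusted p under 0.05 by edgeR. Only 16 of the 23 genes still had a value. All 10 naive genes tested were then negative with a median of -1.13, and none passed. Each omission of 1 node among Eµ-TCL1 node 1 and Eµ-PRMT5/TCL1 nodes 2, 3 and 4 left no naive gene called.

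Nkg7 was at 465 and 244.4 CPM in Eµ-TCL1 nodes and 1131, 1170, 1306 and 1777 CPM in Eµ-PRMT5/TCL1 nodes (2.00, SE 0.31, adjusted p = 0.0094), and passed also with node 3 of Eµ-TCL1 included (1.95, adjusted p = 0.012). It did not pass without the Trbv17 cells in the same 6 nodes (1.97, adjusted p = 0.117), under the stricter gate (1.76, adjusted p = 0.0635), or without Eµ-TCL1 node 2 or Eµ-PRMT5/TCL1 node 3. Ifng, interferon gamma, was at 13.3 and 10.4 CPM against 50.8, 57.2, 84.6 and 70.7 CPM (2.54, SE 0.40, adjusted p = 0.00774), and Fasl, the death ligand, at 15.6 and 31.2 CPM against 36.2, 140, 106 and 93.9 CPM (2.47, SE 0.48, adjusted p = 0.0449). Without the Trbv17 cells in the same nodes Ifng (2.76, adjusted p = 0.179) and Fasl (1.62, adjusted p = 0.543) were positive and did not pass, and neither passed under the stricter gate. Eµ-TCL1 node 3, with 12 members and not fitted, had 529 CPM of Ifng and 265 CPM of Fasl, above all fitted nodes, and with it Ifng (0.95, adjusted p = 0.872) and Fasl (1.75, adjusted p = 0.536) did not pass.

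Adk was at 252 and 333 CPM in Eµ-TCL1 and 50.8, 57.2, 34.6 and 37.3 CPM in Eµ-PRMT5/TCL1 nodes (-2.67, SE 0.30, adjusted p = 0.000256). It passed in each of the 6 fits without 1 node, but not without the Trbv17 cells in the same 6 nodes (-2.16, adjusted p = 0.394), nor with node 3 of Eµ-TCL1 included, whose 12 members had no Adk UMI (-2.46, adjusted p = 0.118). Malt1, a paracaspase of antigen receptor signalling, was at 120 and 203 CPM against 14.5, 31.8, 19.2 and 45 CPM (-2.17, SE 0.39, adjusted p = 0.0247). It did not pass with node 3 included (-2.15, adjusted p = 0.0598), and was too low for a test without the Trbv17 cells in the same 6 nodes.

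Others higher in Eµ-PRMT5/TCL1 nodes were Bhlhe40, a transcription factor of effector cells (1.40, SE 0.28), Gch1 (1.89, SE 0.39), Prkcb (2.26, SE 0.46), Nmrk1 (2.51, SE 0.49), the heat shock gene Hspa1a (3.24, SE 0.59) and the segments Trbv31 and Trbv13-1. Hspa1a was at 3143 CPM in the node with 12 members that was not fitted. All 10 heat shock genes tested were positive with a median of 1.05, and only Hspa1a was called, beside 10 of all 5689 genes that rose. Those lower were the tetraspanin Cd9 (-1.96, SE 0.26), the citrate lyase Acly (-1.62, SE 0.32), Tsc22d1 (-2.83, SE 0.50), Atp1b1 (-2.98, SE 0.57), Cap2 (-3.95, SE 0.82), Prg4 (-4.09, SE 0.65), Ncmap (-4.68, SE 0.43) and Trav9-2 (-4.78, SE 0.48).

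Few of these calls held without the Trbv17 cells or with node 3 of Eµ-TCL1. Without the Trbv17 cells in the same 6 nodes Hspa1a passed (8.36, adjusted p = 0.0319), although over all members with node 3 included it was at -2.51 (adjusted p = 0.764). In that fit without Trbv17 cells Acly was at -0.12 (adjusted p = 0.974), Cd9 at -1.31 (adjusted p = 0.355) and Bhlhe40 at 1.09 (adjusted p = 0.394). Gch1 (1.43, adjusted p = 0.416), Nmrk1 (1.11, adjusted p = 0.667), Prkcb (1.72, adjusted p = 0.527), Trbv31 (3.37, adjusted p = 0.152) and Trbv13-1 (2.26, adjusted p = 0.491) did not pass, and the other genes that fell, from Tsc22d1 to Trav9-2, were too low for a test. With a minimum of 20 members the fit without Trbv17 cells held 1 Eµ-TCL1 node, whose spread was assumed to be that of the others, and there Adk (-2.74, adjusted p = 0.00261), Nkg7 (2.48, adjusted p = 0.0189), Malt1 (-2.45, adjusted p = 0.0197) and Prg4 (-6.32, adjusted p = 0.0189) passed. With node 3 included 3 genes were called, Nkg7, Trbv31 and Trbv13-1. The stricter gate, over all members, kept the same 6 nodes. There Bhlhe40 (1.32, adjusted p = 0.0635), Nmrk1 (2.30, adjusted p = 0.127), Prkcb (2.11, adjusted p = 0.198) and Hspa1a (2.47, adjusted p = 0.524) did not pass. Neither did Atp1b1 (-2.90, adjusted p = 0.0652) and Trbv13-1 (3.95, adjusted p = 0.257).

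**Figure D5:**
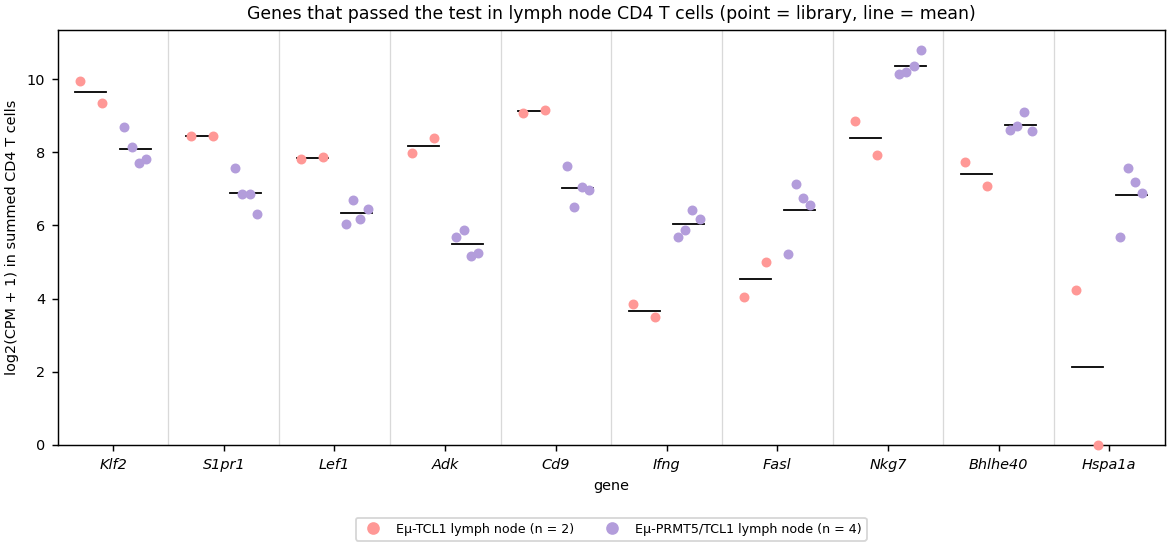
log2(CPM + 1) of 10 called genes in the summed CD4 T cells of each fitted lymph node (1 point a node, line at the group mean), by genotype (n = 4 for Eµ-PRMT5/TCL1, n = 2 for Eµ-TCL1). Klf2 lies at 650 and 982 CPM in the 2 Eµ-TCL1 nodes and at 208 to 413 CPM in the 4 Eµ-PRMT5/TCL1 nodes, and Nkg7 is ordered the other way.

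Node and spleen members of the same mouse were compared in 5 mice (1 Eµ-TCL1 and 4 Eµ-PRMT5/TCL1), and no gene of 6394 was called (0%, edgeR with mouse as a block). DESeq2 called 20, and 296 had an unadjusted p under 0.05 by edgeR. The 10 genes with the lowest p, none of which passed, were led by Anxa1, annexin A1, at 1.16, 19.1, 5.14, 0 and 0 CPM in the nodes and 90.1, 7.66, 184, 101 and 54.6 CPM in the spleens (log2 fold change -5.15, adjusted p = 0.0854). It was lower in the node in 4 of the 5 mice, and higher in the mouse of Eµ-PRMT5/TCL1 spleen 1.

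Alox5ap (-3.68), Spi1 (-3.36), Tyrobp (-3.35), Fcer1g (-3.70), Ly6c2 (-3.09) and Napsa (-2.65) were among the 10 and are expressed by myeloid cells, as were the 4 myeloid-list genes tested, which were all lower in nodes with a median of -3.52. In the both-transgene mice the summed myeloid genes ran from 174 to 401 CPM in nodes, and in spleens from 551 to 15117 CPM. Their part in these values was not tested. Timp2 (2.50), Fam177a (1.26) and Tspan32 (1.41) were higher in nodes. Of 12 naive genes 11 were positive in nodes over spleens, with a median of 0.74 against 0.03 over all genes, and none passed.

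The test of whether the tissue difference itself differed between genotypes rests on 1 Eµ-TCL1 mouse, which has no spread of its own and was assumed to vary like the 4 Eµ-PRMT5/TCL1 mice, and called 1 of 6394 genes (0.0156%). It thus compares that mouse with the others and not the genotypes. Tgfbi, a matrix protein of monocytes and macrophages, was at 33 CPM in the node and 7.42 CPM in the spleen of the Eµ-TCL1 mouse. In the Eµ-PRMT5/TCL1 mice it was at 0, 3.86, 0 and 0 CPM in nodes and 38.3, 140, 247 and 43.1 CPM in the matching spleens (-8.33, SE 0.93, adjusted p = 0.03). Without the Trbv17 cells the interaction was 2.01 and did not pass. No gene passed either without the highest Scrublet scores, with 154 at an unadjusted p under 0.05 by edgeR.

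The genotype difference in CD4 T cells was also tested against that in CD8 T cells of the same spleens. For Eµ-PRMT5 against Eµ-TCL1, 41 of 10557 genes differed (0.388%), 26 with the higher and 15 with the lower change in CD4 T cells. Of 15 naive genes 3 were among them: Bach2 (interaction 2.09, SE 0.36, adjusted p = 0.00604), Foxp1, a factor that keeps T cells quiescent (1.87, SE 0.30, adjusted p = 0.00429), and Il6ra (2.88, SE 0.55, adjusted p = 0.0162). Foxp1 was at 167, 189, 142 and 11.5 CPM in CD4 T cells of Eµ-PRMT5 and 43.6 and 53.7 CPM in those of Eµ-TCL1 spleens, so Eµ-PRMT5 spleen 4 lay below both.

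Of 35 interferon-stimulated genes 3 also had the higher change in CD4 T cells, Igtp (1.67, SE 0.34), Slfn8 (2.52, SE 0.54) and Samhd1 (1.28, SE 0.28), and 27 were positive with a median of 0.73 against 0.04 over all genes. Tbx21, the Th1 factor T-bet (2.31, SE 0.40), Itgb1 (1.58, SE 0.29), Nt5e, the ectonucleotidase CD73 (2.64, SE 0.43), Pou2f2 (2.37, SE 0.32), Klk8 (2.29, SE 0.39), Pik3ip1 (3.24, SE 0.53), Gngt2 (2.70, SE 0.46), Tmem176a (4.89, SE 0.73) and Tdrp (5.36, SE 0.72) had positive interactions too. Negative interactions were seen for Racgap1, a cytokinesis protein (-2.07, SE 0.37), Serpinb9, an inhibitor of granzyme B (-1.70, SE 0.34), Arsb (-2.02, SE 0.33), Ncald (-3.47, SE 0.61), Susd1 (-3.69, SE 0.70), Hsd11b1 (-1.91, SE 0.42), Grk6 (-1.29, SE 0.28), Klhdc2 (-1.61, SE 0.35), Mt3 (-4.32, SE 0.94), Lime1 (-1.25, SE 0.28), Wipf3 (-5.21, SE 0.90) and Trav9-2 (-3.36, SE 0.59). Without Eµ-TCL1 spleen 1 the count fell to 2, neither of them shared with the 41. B cell genes had a median interaction of 1.95 with 8 of 9 positive, and myeloid genes of 1.32 with 9 of 15 positive, none of which passed.

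For Eµ-PRMT5/TCL1 against Eµ-TCL1, 17 of 10557 genes differed (0.161%), 11 with the higher and 6 with the lower change in CD4 T cells. Gngt2, a G protein subunit (3.83, SE 0.43, adjusted p = 0.000123), was at 68.9, 46.5, 39.5 and 11.5 CPM in CD4 T cells of Eµ-PRMT5/TCL1 and 3.15 and 0 CPM in those of Eµ-TCL1 spleens. Ms4a4c (3.39, SE 0.41), Lilrb4a (2.43, SE 0.46), Pld4 (3.14, SE 0.58), Ly86 (3.1, SE 0.62), Rnf130 (2.56, SE 0.49), Coro2a (3.05, SE 0.51), Acss2 (3.52, SE 0.59) and Nccrp1 (3.22, SE 0.58) were likewise positive, of which Pld4, Ly86 and Lilrb4a are also expressed by myeloid cells. Myeloid genes had a median interaction of 1.92 with 10 of 15 positive, and B cell genes of 1.21 with 7 of 9 positive, against 0.02 over all genes, and none of either list passed. Their part in these calls was not tested, and no fit under the stricter gate was made for this interaction. Rln3 (-4.00, SE 0.54), Dnase1l3 (-3.62, SE 0.68), Smco4 (-1.59, SE 0.32), Wipf3 (-5.55, SE 0.97) and Trav9-2 (-5.05, SE 0.68) were negative. Without Eµ-TCL1 spleen 1 there were 20, and 3 were shared.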

How the data were processed

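Cells of 13 spleens and 7 lymph nodes were measured by 10x Genomics 3' v2 scRNA-seq. The authors deposited raw UMI counts per gene and barcode for every barcode, before any filter. The labels name Cell Ranger 2.0.1, Seurat 2.2.1 and GRCm38, while the matrix headers name software 3.1.0. Cells were chosen by the UMI limits given in the report, with the members and gene lists chosen with earlier results of these data known. Shares and ratios were compared by exact two-sided permutation over libraries or sign-flip over mice (scipy 1.17.1), adjusted by Benjamini-Hochberg over 15 tests. UMIs were summed over the members of each library with 20 or more, and tested with edgeR 4.0.16 (filterByExpr, TMM, robust quasi-likelihood, adjusted over all genes tested), spleens of the 3 genotypes sharing 1 fit, with DESeq2 1.42.0 as an alternative. The mouse was a block between tissues. Standard errors are the log2 fold change over the square root of F. Where leaving out a library left 1 in a group, that library was assumed to vary like the others. Scripts ran under R 4.3.3 and Python 3.11.15, and the tests were tried on simulated data.

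Named genes were list members that passed, then called genes at 20 CPM or more without overlap between groups (up to 12 a direction by fold change), or, where under 5 were called, the 10 with the lowest p. Gene models without a name were counted only. Other genes were chosen after their values were seen, as said beside them. Doublets were not removed from the main set: Scrublet's automatic threshold (scanpy 1.11.5) marked under 0.5% in 16 libraries, so the highest scores at the expected rate (0.8% per 1000 barcodes) were left out as an alternative. Intervals cover counting error only. The labels tie each library to a mouse, so p-values measure spread between mice. Alternatives added after seeing the data were a minimum of 10 cells, leaving out Trbv17 cells, up to 3 Cd79 UMIs, and the stricter gate and the omission of Trbv17 cells with the fitted libraries kept whatever their number of cells.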

Additional observations from a re-analysis of the deposited data

Results flagged for a closer look

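Libraries that lay far from the rest of their group by Dixon's test were 14 of 84 group tests, where chance gives about 1 in 20. Eµ-TCL1 spleen 1 was highest in the share of kept barcodes (14.24%) and of T cells (37.6%). Eµ-PRMT5/TCL1 spleen 3 was lowest in the share of T cells (2.951%) and in the log2 CD4 to CD8 ratio (-4.831), Eµ-PRMT5 spleen 5 was lowest in that ratio (-8.379), and Eµ-PRMT5/TCL1 node 1 was highest in the share of T cells (25.24%). Eµ-PRMT5 spleen 4 was highest in summed Th1 and cytotoxic genes (29008 CPM), in CD8 and cytotoxic marker genes (26175 CPM) and in myeloid genes (9868.8 CPM), with 22 members. Eµ-PRMT5 spleen 2 was highest in T cell receptor signalling genes (6999.6 CPM), and Eµ-PRMT5/TCL1 node 3 in proliferation genes (8596.6 CPM). Erythroid genes were highest in Eµ-PRMT5 spleen 3 (488.61 CPM) and Eµ-PRMT5/TCL1 node 1 (50.746 CPM). Ribosomal protein genes were lowest in Eµ-PRMT5/TCL1 spleen 4 (6.917% of member UMIs).

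Effects that differed between groups by an interaction test were 1 gene for tissue by genotype, which sets 1 Eµ-TCL1 mouse against 4 others and rests on no spread of its own, and 41 and 17 genes for CD4 against CD8 T cells in the Eµ-PRMT5 and the Eµ-PRMT5/TCL1 comparison with Eµ-TCL1 spleens.

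Outside the members, 512 barcodes met every other term of the rule but held 4 or more Cd79 UMIs, and 377 T cells held both Cd4 and Cd8 UMIs. What these barcodes are was not tested.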

How the results depend on the processing

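Counts of called genes moved most. For Eµ-PRMT5 against Eµ-TCL1 spleens (42) they were 612 without a filter on low counts, 108 with libraries of at least 50 cells and 18 with at least 10, 126 under the stricter gate (36 with the same spleens), 0 without Trbv17 cells and 200 with sex as a covariate. For Eµ-PRMT5/TCL1 against Eµ-TCL1 spleens (7) they were 16 with DESeq2, 361 without the filter, 1 with at least 10 cells, 4 thinned, 17 under the stricter gate, 0 without Trbv17 cells and 26 with sex. For Eµ-PRMT5/TCL1 against Eµ-PRMT5 spleens (164) they were 823 without the filter, 29 thinned, 270 under the stricter gate (92 with the same spleens) and 364 with sex. In nodes (23) they were 46 with DESeq2, 254 without the filter, 493 with at least 50 cells, 3 with at least 10, 15 without Trbv17 cells (2 with the same nodes) and 41 with sex. For node against spleen (0) they were 20 with DESeq2, 260 without the filter, 27 with at least 50 cells and 10 without Trbv17 cells. For tissue by genotype (1) they were 2 with DESeq2, 46 without the filter, 544 with at least 50 cells, 2 with at least 10, and 0 thinned, without the highest Scrublet scores, under the stricter gate and without Trbv17 cells. For CD4 against CD8 (41 and 17) they were 366 and 291 without the filter and 325 and 141 with at least 50 cells. The stricter gate took Eµ-PRMT5 spleen 4 to 18 members, and leaving out Trbv17 cells took Eµ-TCL1 node 2 to 15, so both left the fit and the second left 1 Eµ-TCL1 node, unless the same libraries were kept. A minimum of 50 cells left 1 spleen (904 members) and 1 node (269) of Eµ-TCL1. Its counts against that genotype thus rest on 1 library, assumed to vary like the others. Other causes were not tested. Leaving out 1 library gave 0 to 125, 0 to 20, 10 to 413, 7 to 277 in nodes, 0 to 8 between tissues, 0 to 188 for tissue by genotype, and 2 to 89 and 9 to 35 for CD4 against CD8.

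Libraries of 1 tissue that share a replicate number across genotypes had r from -0.09 to 0.07 between their deviations from the group mean. Node and spleen of 1 mouse, which share a number in some mice, had r from -0.05 to 0.15, and were paired by mouse. Known pairs thus also had low r, so r cannot tell whether the numbers pair libraries. With the replicate number as a block the counts were 26, 0, 3 and, in nodes, 75.

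Differences in shares reversed in direction under some settings, and none passed its test. The share of kept barcodes of Eµ-PRMT5 over Eµ-TCL1 spleens was 0.744 points with no Cd79 UMI allowed and 2.82 without Trbv17 cells. That of Eµ-PRMT5/TCL1 over Eµ-TCL1 was 1.77 in spleens and 1.14 in nodes without Trbv17 cells. The share of T cells differed by -0.525 (Eµ-PRMT5 over Eµ-TCL1), 0.514 (Eµ-PRMT5/TCL1 over Eµ-TCL1) and 1.04 (Eµ-PRMT5/TCL1 over Eµ-PRMT5) at 3000 UMIs, and for the second also by 1.39 with no Cd79 UMI and 7.24 without Trbv17 cells. Leaving out 1 library gave, for the share of kept barcodes, -1.37 to 3.34, -2.47 to 2.24, -2.16 to -0.0840, in nodes -1.80 to 1.34 and between tissues -1.59 to -0.170. For the share of T cells it gave -1.51 to 10.8, -3.40 to 8.96, -4.86 to 0.575, -0.123 to 7.55 and -7.46 to -0.561, and for the log2 ratio 0.58 to 3.06, 0.94 to 3.42, -0.94 to 1.03, 0.47 to 2.03 and -1.03 to -0.18.

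Of 159 named gene results, 3 reversed on leaving out a library, all Ccl5 in Eµ-PRMT5/TCL1 against Eµ-PRMT5 spleens (-0.03 without Eµ-PRMT5 spleen 1, -0.05 without spleen 3 and -0.03 without Eµ-PRMT5/TCL1 spleen 2, up to 2.29 without Eµ-PRMT5 spleen 4). Hspa1a in nodes was -2.51 with at least 10 cells, and Tgfbi was 2.01 without Trbv17 cells. Few members in Eµ-TCL1 libraries limit every comparison with that genotype.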
